A study of Homo sapiens with 5 samples.

Results

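The genes described here encode the nuclear subunits of respiratory complexes I to IV and of ATP synthase (complex V), with the assembly factors that share their names. They were taken by symbol, as every row whose name begins with NDUF, UQCR, COX4 to COX8, ATP5 or SDHAF, together with SDHA to SDHD and CYC1. The rule found 99 rows and 98 gene symbols among 18512 symbols in the table, of which 85 are subunits, 12 are assembly factors and 1 (ATP5S) is a factor associated with ATP synthase. The cells were BT474, an established HER2-amplified breast cancer line of luminal type. Persister cells (3 libraries) had been exposed for 9 days to lapatinib at 2 µM, with a change of medium and drug every 3 days; lapatinib blocks the kinase activity of HER2 and EGFR. Parental cells (2 libraries) were grown in parallel without lapatinib, and both groups received 0.01% DMSO. Polyadenylated RNA was sequenced, and the authors' deposited table gives 1 FPKM value (fragments scaled to transcript length and to sequencing depth) per gene and group. All values below are therefore group values without an SD, whether the libraries came from separate cultures is not given in the labels, and the depth of each library is unknown.

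The respiratory chain sits in the inner mitochondrial membrane. Complex I oxidises NADH and complex II oxidises succinate, and both pass electrons to ubiquinone. Complex III moves them on to cytochrome c, and complex IV gives them to oxygen. Complexes I, III and IV pump protons, and ATP synthase lets the protons back to make ATP. Most subunits are encoded in the nucleus and imported, while a few catalytic ones are encoded by mitochondrial DNA, and assembly factors build the complexes without remaining in them. No mitochondrially encoded subunit was found in the table under any of the 26 symbols searched, so the description covers the nuclear share only.

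Transcripts of the respiratory chain and ATP synthase were mostly lower in persister than in parental cells, in all 5 complexes, although 9 called members turned on another scale described below. Calls rest on the q-value that the authors give for their own comparison: genes with a q-value below 1 are taken as tested and those under 0.05 as called. Of 92 tested members, 85 were called lower and 1 higher, and 6 were not called. Among all 13617 tested genes, 39.0% were called lower and 30.9% higher, and 69.9% were called in either direction. With a q-value under 0.01, 81 members were called lower beside 35.2% of tested genes, and with a difference of at least 0.5 on the scale given next, 65 members beside 19.4%. The median difference of the tested members was -0.70 on the log2(FPKM + 1) scale (persister minus parental, the scale of all differences below), against -0.04 over all tested genes. For the 78 subunits other than 7 tissue-restricted or stress-linked isoforms, persister FPKM lay between 40.9% and 91.9% of parental FPKM, with a median of 60.5% and quartiles of 52.8% and 68.4%. Values are per RNA of each group, so fewer cells of a kind and less RNA per cell cannot be told apart.

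The sum of FPKM over all genes differed between the groups, at 332885 in parental and 259812 in persister cells. When each group was divided by its own sum (the TPM scale), the median difference over all tested genes moved from -0.04 to 0.24 and that of the members from -0.70 to -0.35. On that scale 76 called members were lower and 10 higher, beside 31.5% and 38.3% of all tested genes. The 9 members that turned were NDUFA5, NDUFA7, NDUFA11, NDUFV1, SDHD, COX7A2L, ATP5D, SDHAF1 and SDHAF2, each of which kept at least 78.5% of its parental FPKM as deposited. Members together made up 3.40% of the FPKM sum in parental and 2.55% in persister cells.

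**Figure D1:**
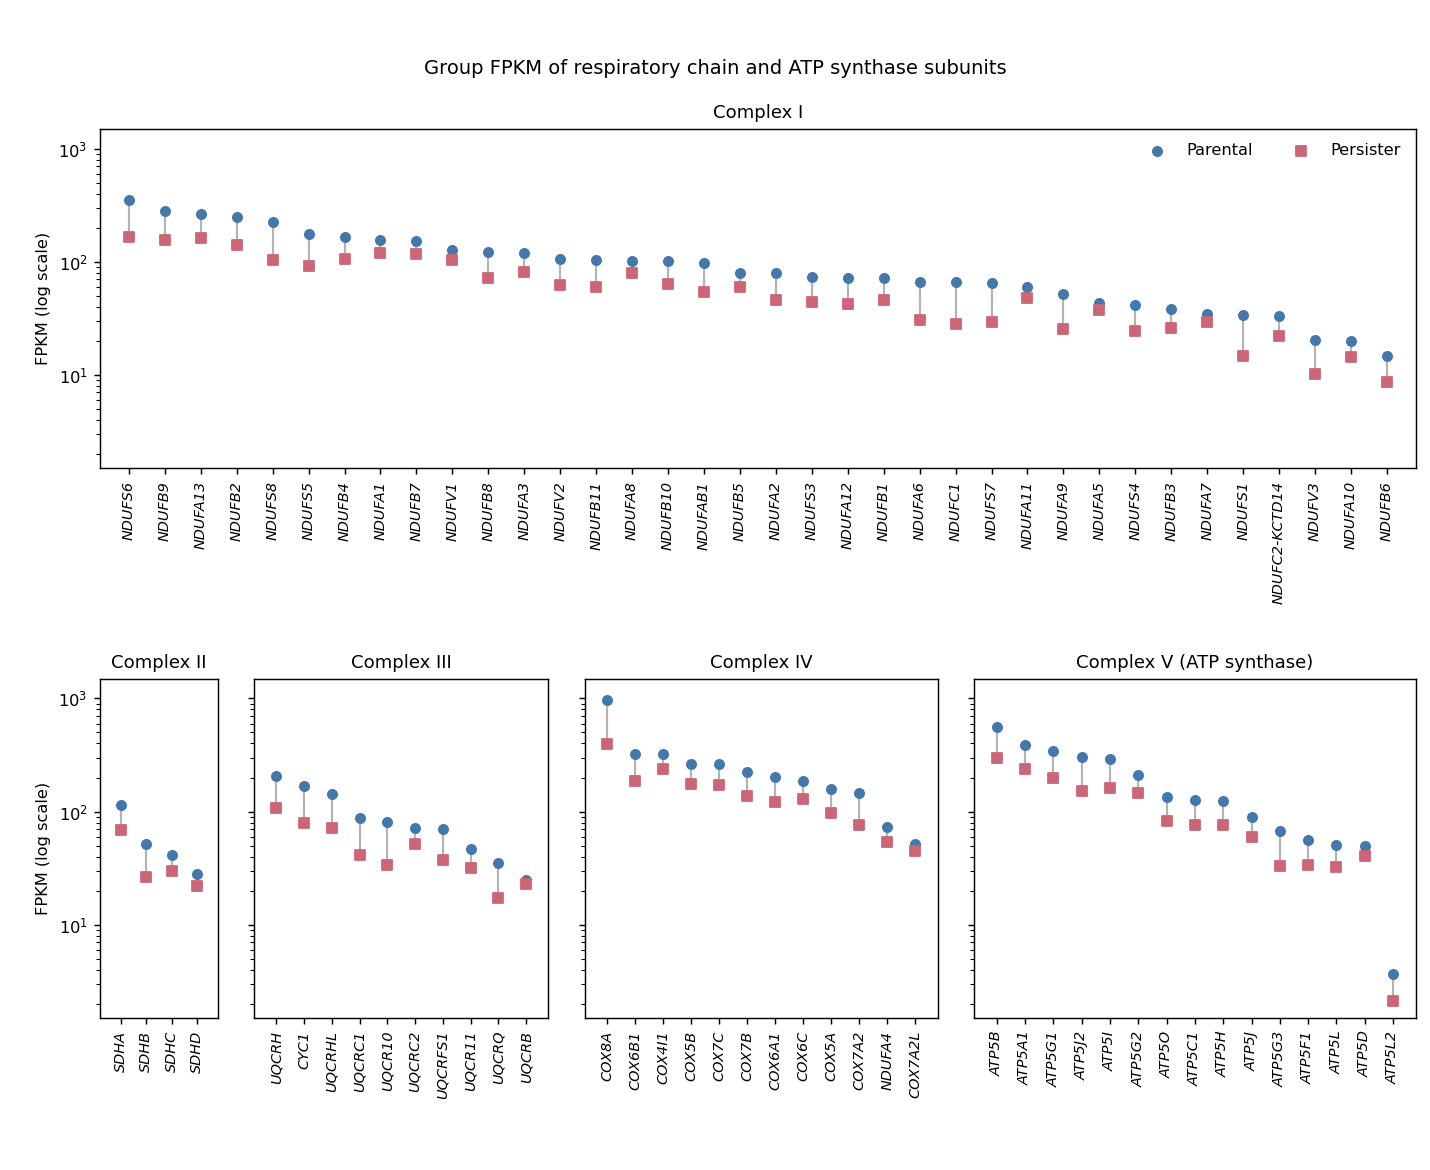
Group FPKM (vertical axis, log scale) of each subunit in parental (circles) and persister cells (squares), by complex and in order of parental level, for 77 subunits, restricted isoforms left out. Persister FPKM lies under parental FPKM for each subunit shown, from 40.9% (COX8A) to 91.9% (UQCRB) of it, while on the TPM scale UQCRB and 7 called subunits lie above.

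Members are abundant and short, and abundant genes, more so those that were also short, had lower medians across the whole table as deposited. Among all 3152 tested genes with a mean FPKM of at least 20, 62.8% were called lower with a median of -0.34. In that range 17.0% of all genes were called higher, while of 78 members 77 were called lower and none higher, with a median of -0.71. Among the 808 such genes with transcripts shorter than 1500 bases, 74.9% were called lower with a median of -0.49, and all 57 members in that range were called lower, with a median of -0.71. The median transcript length was 930 bases over 77 of the 78 subunits and 2790 bases over tested genes. The part of length and level in the members' differences was not tested.

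**Figure D2:**
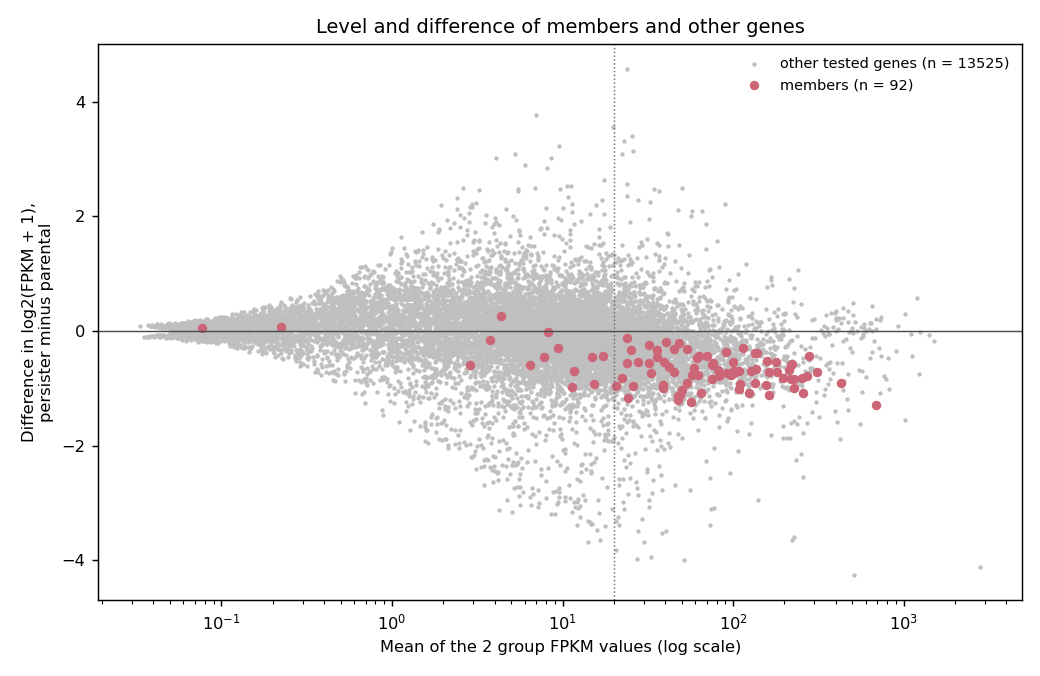
Difference in log2(FPKM + 1), persister minus parental (vertical axis), against the mean of both group FPKM values (horizontal axis, log scale) for 92 tested members and the other tested genes. The dotted line marks 20 FPKM, to the right of which 77 of 78 members were called lower beside 62.8% of all tested genes there, as deposited; 9 called members turn on the TPM scale.

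The order of levels among subunits was nearly kept between the groups. Over the 78 subunits, Spearman's rho between parental and persister FPKM was 0.98, a description across genes that share libraries and transcript lengths. The spread of levels was also alike, with an SD of log2 FPKM across subunits of 1.32 in parental and 1.29 in persister cells. COX8A had the highest FPKM of all members in both groups, at 971 and 397 FPKM. By complex, the median FPKM of the same subunits was highest for complex IV (213 in parental and 133 in persister cells), followed by complex V (127 and 76.8), complex I (80.3 and 53.8), complex III (76.1 and 39.3) and complex II (46.4 and 28.1). Spearman's rho of the difference with a subunit's own mean FPKM was -0.18, and with its transcript length 0.11 (77 subunits).

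In complex I, the entry point for NADH, all 37 subunits in the table were called lower, with a median of -0.71 and 59.3% of the parental FPKM, and on the TPM scale 33 remained lower while NDUFV1, NDUFA5, NDUFA7 and NDUFA11 turned. The 7 core subunits, which carry the flavin and iron-sulfur clusters or form the ubiquinone site, had a median of -0.75 and the 30 accessory subunits one of -0.68. NDUFS1, the largest iron-sulfur subunit, went from 33.9 FPKM to 14.6 FPKM, which is 43.0% of the parental level. NDUFS7 and NDUFS8, whose clusters lie on the path to ubiquinone, had parental and persister values of 65.3 and 29.2 FPKM (44.7%) and of 224 and 103 FPKM (46.0%). NDUFV2, beside the flavin, fell from 106 to 62.4 FPKM. NDUFV1, which binds the flavin and oxidises NADH, kept 81.3% of its parental level as deposited (126 and 103 FPKM, with q = 2.70e-05 in the authors' deposited table). The core subunits of this complex thus ranged from 43.0% to 81.3% of parental.

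Accessory subunits of complex I surround the core and stabilise it. NDUFC1, a small protein of the membrane arm, had the largest difference of them, at 66.5 and 28.3 FPKM (42.6% of parental). NDUFA6, a peripheral-arm subunit that binds the mitochondrial acyl carrier protein, fell from 66.9 to 30.3 FPKM, and NDUFS6, a zinc-binding subunit with the highest parental level in the complex, from 352 to 165 FPKM. NDUFA9, near the ubiquinone site, was at 52.2 and 25.7 FPKM (49.2%). NDUFA5 had the smallest difference, at 43.1 and 37.7 FPKM (87.3% of parental, q = 0.0224 in the authors' deposited table), and lay above parental on the TPM scale. The 16 subunits of the peripheral arm, which reaches into the matrix, had a median of -0.77, and the 20 of the membrane arm one of -0.65, with overlapping ranges of -1.16 to -0.19 and -1.20 to -0.32. NDUFC2 is represented by a row joined with its neighbour KCTD14, at 32.9 and 22.2 FPKM. NDUFB4 stood on 2 rows, one of them listed at 0 in both groups, and the other, at 167 and 105 FPKM, was used.

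**Figure D3:**
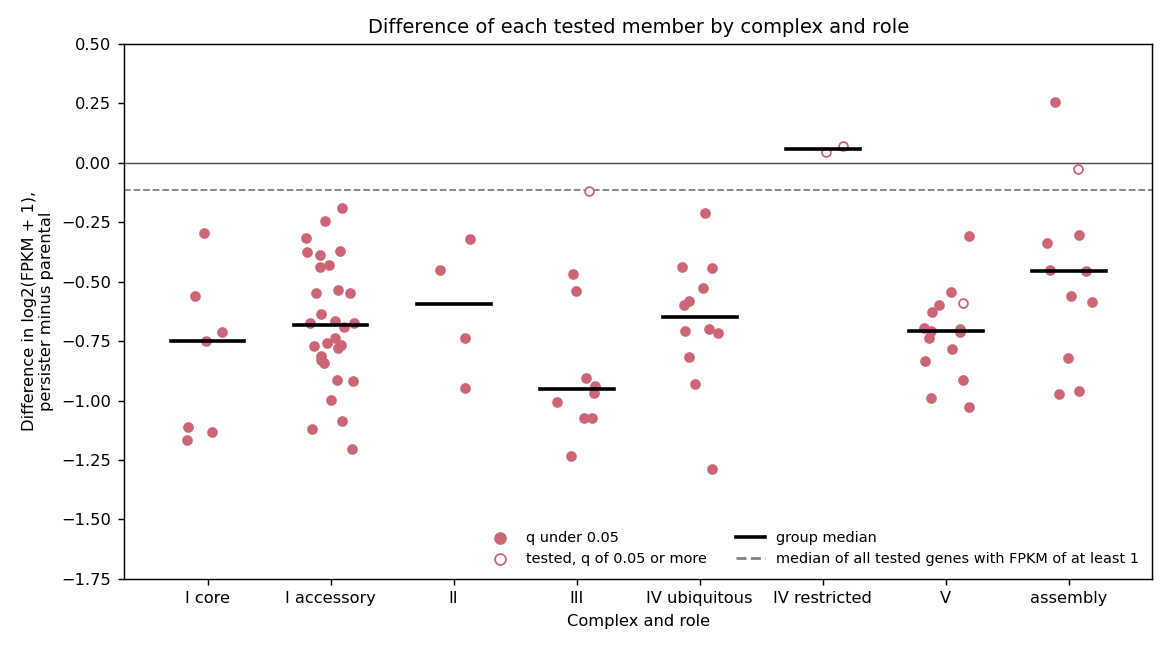
Difference in log2(FPKM + 1), persister minus parental (vertical axis), of each tested member except ATP5S by complex and role (horizontal axis), filled where the authors' q-value was under 0.05. Black bars are group medians, from -0.95 in complex III to -0.45 in the assembly factors among the groups with called members (-0.61 and -0.15 on the TPM scale), and the dashed line at -0.12 is the median of the 10160 tested genes with at least 1 FPKM in both groups.

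Complex II, succinate dehydrogenase, belongs to both the citric acid cycle and the respiratory chain, and it is encoded entirely in the nucleus. Its 4 subunits were called lower, with a median of -0.59, and on the TPM scale SDHD turned. SDHB, the iron-sulfur subunit, was at 51.4 and 26.2 FPKM (51.0% of parental), and SDHA, the flavoprotein that oxidises succinate, at 115 and 68.8 FPKM (59.6%). The membrane anchors had smaller differences, with SDHC at 41.4 and 30.1 FPKM (72.6%) and SDHD at 28.0 and 22.2 FPKM (79.3%). The catalytic pair thus lay below the anchor pair, with 4 values in all and no test of that difference.

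Complex III had the largest median difference of the complexes, at -0.95, with 9 of 10 members called lower on both scales and the other not called. CYC1, which encodes the haem protein cytochrome c1, was at 169 and 79.8 FPKM (47.2%), and the Rieske iron-sulfur protein UQCRFS1 at 70.6 and 37.2 FPKM (52.8%). UQCR10, a small subunit next to cytochrome c1, had the largest difference in the complex, at 80.4 and 33.7 FPKM (41.9%). UQCRQ, a subunit close to cytochrome b, fell from 34.8 to 17.3 FPKM (49.8%). The matrix-facing core proteins were apart from each other, with UQCRC1 at 88.1 and 41.4 FPKM (47.0%) and UQCRC2 at 71.9 and 51.7 FPKM (72.0%). UQCRB, the ubiquinone-binding protein, was at 24.98 and 22.94 FPKM and was not called (q = 0.153 in the authors' deposited table). A difference between complexes was not tested, and the median of complex III relative to that of the 10160 genes was -0.84, beside -0.60 for complex I.

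UQCRH, the acidic hinge protein of complex III, and its intronless copy UQCRHL are shown because their sequences bear on what their values mean. Their coding sequences (GENCODE 29, GRCh38) have the same length of 276 bases, differ at 4 positions and are 98.6% identical, with an unbroken identical stretch of 157 bases. That of UQCRH spans chr1:46303767-46316584 on the plus strand in 4 exons, and that of UQCRHL chr1:15807374-15807649 on the minus strand in 1 exon. Counted from the first base of the start codon, the substitutions from UQCRH to UQCRHL are G158A, G167A, G231A and G233A, in capitals below.
UQCRH: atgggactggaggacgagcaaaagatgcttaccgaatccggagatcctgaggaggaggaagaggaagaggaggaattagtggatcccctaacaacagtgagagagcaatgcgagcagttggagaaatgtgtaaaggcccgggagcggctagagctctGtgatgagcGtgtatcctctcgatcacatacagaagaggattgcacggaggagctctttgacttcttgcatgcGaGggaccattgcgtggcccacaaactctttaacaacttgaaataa
UQCRHL: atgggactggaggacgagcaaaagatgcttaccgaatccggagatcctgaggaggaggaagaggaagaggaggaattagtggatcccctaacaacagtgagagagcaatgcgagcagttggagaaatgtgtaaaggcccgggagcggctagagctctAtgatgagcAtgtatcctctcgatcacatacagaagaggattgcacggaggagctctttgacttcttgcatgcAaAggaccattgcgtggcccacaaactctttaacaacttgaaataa

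Reads that lie within the identical stretches cannot be told apart by sequence, so the split between them is uncertain. UQCRH was listed at 206 and 107 FPKM and UQCRHL at 144 and 71.2 FPKM. Summed, they reached 350 FPKM and 178 FPKM, 50.9% of parental, and the copy took 41.2% and 40.0% of it. Both rows and their sum were between 49.4% and 51.9% of parental, but the sum also rests on the split, because FPKM divides each row's reads by its own transcript length.

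In complex IV, cytochrome c oxidase, all 12 ubiquitous subunits were called lower, with a median of -0.65 and 63.6% of the parental FPKM, and on the TPM scale 11 remained lower while COX7A2L turned. COX8A, a small membrane subunit, had the largest difference of all members (40.9% of parental). COX7A2 fell from 145 to 75.4 FPKM (52.1%), COX6B1, which faces the intermembrane space, from 325 to 184 FPKM (56.7%), COX6A1 from 202 to 122 FPKM (60.6%) and COX7B from 224 to 137 FPKM (61.0%). COX4I1, the subunit that carries an ATP-binding regulatory site, was at 322 and 238 FPKM (73.8%). NDUFA4, named as a complex I protein but now assigned to complex IV, was at 73.3 and 53.7 FPKM (73.2%). COX7A2L, which links complex III and complex IV in supercomplexes, had the smallest difference of the 12, at 51.7 and 44.6 FPKM (86.2%, q = 0.0151 in the authors' deposited table). Among the 12 ubiquitous subunits, the highest and the lowest in parental cells, COX8A and COX7A2L, were also those with the largest and the smallest difference. The order did not hold between them, as COX4I1, at 322 FPKM in parental cells, kept 73.8% and COX7A2, at 145 FPKM, 52.1%.

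The isoforms of complex IV that are restricted to muscle, testis, lung or stressed cells were at or near 0 in both groups. COX4I2, COX6B2 and COX8C were listed below 0.04 FPKM in both groups and were not tested. COX6A2, a heart and muscle isoform, was listed at 0.0145 FPKM in parental cells and at 0 in persister cells, and COX7B2 was listed at 0 in both. COX7A1, the muscle counterpart of COX7A2, was listed at 0.0598 and 0.0950 FPKM (q = 0.492 in the authors' deposited table). NDUFA4L2, a counterpart of NDUFA4 induced by low oxygen, was listed at 0.194 and 0.255 FPKM (q = 0.846). No isoform of this kind exceeded 0.255 FPKM, so in both groups the ubiquitous isoform held almost all of the signal of each pair.

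In ATP synthase, 14 of 15 subunit genes were called lower, with a median of -0.71 and 60.4% of the parental FPKM, and on the TPM scale 13 remained lower while ATP5D turned. In the catalytic F1 head, the beta subunit gene ATP5B, the second most abundant member, was at 562 and 298 FPKM (53.0%), and the alpha subunit gene ATP5A1 at 387 and 237 FPKM (61.2%). Of the central shaft, the gamma subunit gene ATP5C1 was at 127 and 75.7 FPKM (59.8%) and the delta subunit gene ATP5D at 49.9 and 40.1 FPKM (80.5%, q = 0.0284 in the authors' deposited table). The epsilon subunit gene ATP5E has no row of its own, because its transcript identifier stands in the row of its neighbour PRELID3B (405 and 223 FPKM), which was not counted. The 4 genes of the peripheral stalk lay close together, between -0.71 and -0.60, including ATP5F1 at 56.2 and 34.0 FPKM and ATP5O at 134 and 82.4 FPKM. Among small subunits of the membrane part, ATP5J2 was at 303 and 152 FPKM (50.3%) and ATP5I, which takes part in dimer formation, at 290 and 162 FPKM (55.9%).

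The rotating c-ring of ATP synthase is encoded by 3 genes, ATP5G1, ATP5G2 and ATP5G3, whose products differ in the import signal but give the same mature protein. All 3 were called lower on both scales. ATP5G1 was at 344 and 199 FPKM (58.0%), ATP5G2 at 212 and 145 FPKM (68.5%) and ATP5G3 at 67.9 and 32.8 FPKM (48.3%). Their summed level was 623 FPKM and 377 FPKM, which is 60.5% of parental. ATP5G1 held 55.1% of that sum in parental and 52.8% in persister cells, ATP5G2 34.0% and 38.5%, and ATP5G3 10.9% and 8.69%. ATP5L, a dimer-linking subunit, was at 64.1% of parental, and its intronless copy ATP5L2, at 3.66 and 2.10 FPKM, was not called (q = 0.176 in the authors' deposited table). ATP5S, an associated coupling factor, was at 4.02 and 3.49 FPKM and was not called either (q = 0.171).

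Assembly factors named by the rule had median levels of 15.4 and 8.27 FPKM over those tested (parental, then persister), beside 93.8 and 59.9 FPKM for tested subunits. Of 11 tested, 9 were called lower and 1 higher, with a median of -0.45, and on the TPM scale 7 were lower and 3 higher because SDHAF1 and SDHAF2 turned. For complex I, NDUFAF2, a chaperone related to the subunit NDUFA12, fell from 15.4 to 7.37 FPKM (47.8%) and NDUFAF6 from 27.6 to 13.7 FPKM (49.7%). NDUFAF3 was at 28.9 and 15.9 FPKM (55.1%) and NDUFAF5, which hydroxylates NDUFS7, at 7.95 and 4.96 FPKM (62.4%). NDUFAF7, a methyltransferase needed for complex I assembly, was the member called higher, on both scales, at 3.90 and 4.84 FPKM (q = 0.00983 in the authors' deposited table). For complex II, SDHAF2, which helps attach flavin to SDHA, was at 40.0 and 31.4 FPKM and SDHAF1, needed for the clusters of SDHB, at 10.4 and 8.27 FPKM. SDHAF4 was at 8.34 and 8.18 FPKM and was not called (q = 0.884), and SDHAF3 was listed at 0 in both groups.

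Among members called lower, 16 had persister FPKM under 50% of the parental value, a size reached by 10.4% of all tested genes and by 10.3% of those with a mean FPKM of at least 20. They were 7 subunits of complex I (NDUFS1, NDUFS7, NDUFS8, NDUFS6, NDUFA6, NDUFA9 and NDUFC1), 5 of complex III (CYC1, UQCRC1, UQCR10, UQCRQ and UQCRHL), COX8A, ATP5G3 and the assembly factors NDUFAF2 and NDUFAF6. None of the 4 subunits of complex II was among them. The 16 members and both shares are as deposited. On the TPM scale no member called lower was under 50%, and the largest difference, that of COX8A, was from 2916 to 1529. A grouping made after these values were seen was that of the 7 nuclear subunits with an iron-sulfur cluster (NDUFS1, NDUFS7, NDUFS8, NDUFV1, NDUFV2, SDHB and UQCRFS1). As deposited it had a median of -0.95 and 51.0% of parental, with 3 of 7 under 50% and NDUFV1 at 81.3%. Its median on the TPM scale was -0.61.

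Genes of the same pathway outside the naming rule moved in the same direction more often than not. Of 38 other assembly factors on a fixed list, 29 were called lower (76.3%) and 3 higher, with a median of -0.47 (25 lower and 7 higher on the TPM scale). Over all tested genes, 39.0% were called lower and 30.9% higher as deposited, and 31.5% and 38.3% on the TPM scale. COX17, the copper chaperone of complex IV, fell from 101 to 34.8 FPKM, COX20, a chaperone of the second mitochondrially encoded oxidase subunit, from 13.2 to 4.98 FPKM, and UQCC2, an assembly factor for cytochrome b, from 32.5 to 15.0 FPKM. UQCC1, its partner, was called higher at 44.1 and 56.4 FPKM, as were COX19 at 8.22 and 10.0 FPKM and COA5 at 12.1 and 14.6 FPKM. The list also held PET112L, whose current name GATB marks it as a tRNA amidation gene, and it was not called. For COX16 and SCO2 the table had no row of their own.

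Of 21 genes for mobile carriers, ubiquinone synthesis and other dehydrogenases that feed the chain, 17 were called lower (81.0%) and 3 higher, beside 39.0% and 30.9% of all tested genes. Their median was -0.58, and 16 were lower and 4 higher on the TPM scale. Cytochrome c itself (CYCS) fell from 34.1 to 15.4 FPKM, 45.0% of parental. PDSS1, which makes the side chain of ubiquinone, fell from 6.53 to 1.79 FPKM, the largest difference on this list. ETFA followed at 280 and 113 FPKM, and COQ3, a methyltransferase of ring synthesis, was at 10.99 and 4.48 FPKM. ETFB, ETFDH, DHODH, GPD2, SQRDL and AIFM1 were also called lower. In the other direction, ADCK3 (COQ8A), an atypical kinase of the ubiquinone synthesis complex, was called higher at 11.7 and 22.9 FPKM, COQ10A at 0.819 and 1.69 FPKM and COQ4 at 28.2 and 34.2 FPKM. Ubiquinone synthesis genes thus had members called in each direction.

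Regulators were mixed. Of 22 genes for transcription factors, coactivators, mitochondrial DNA maintenance and the ATP synthase inhibitor, 10 were called lower (45.5%) and 3 higher (13.6%). Over all tested genes the shares were 39.0% and 30.9%, so the share called lower was near that of the whole table. The median was -0.13 as deposited and 0.17 on the TPM scale, so the sign of the median depended on scaling. HIF1A fell from 71.9 to 31.1 FPKM and GABPB1, the partner of the ETS factor GABPA, from 10.9 to 4.87 FPKM, while GABPA was at 5.11 and 5.02 FPKM (q = 0.847 in the authors' deposited table). ATPIF1, which stops ATP synthase from running backwards, fell from 105 to 65.6 FPKM (62.3%), beside a median of 60.4% over the ATP synthase subunits. PPARGC1A, the coactivator PGC-1 alpha that promotes mitochondrial biogenesis, was called higher at 0.825 and 1.92 FPKM, as were POLG2 at 5.70 and 8.87 FPKM and MYC at 49.5 and 56.3 FPKM. As deposited, PPARGC1B (1.67 and 1.19 FPKM), PPRC1 (17.0 and 13.4 FPKM) and TFAM (16.3 and 11.6 FPKM) were among those called lower. NRF1, which activates many respiratory genes, was listed at 13.7 and 22.8 FPKM, but its q-value was 0.832 and it was not called.

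**Figure D4:**
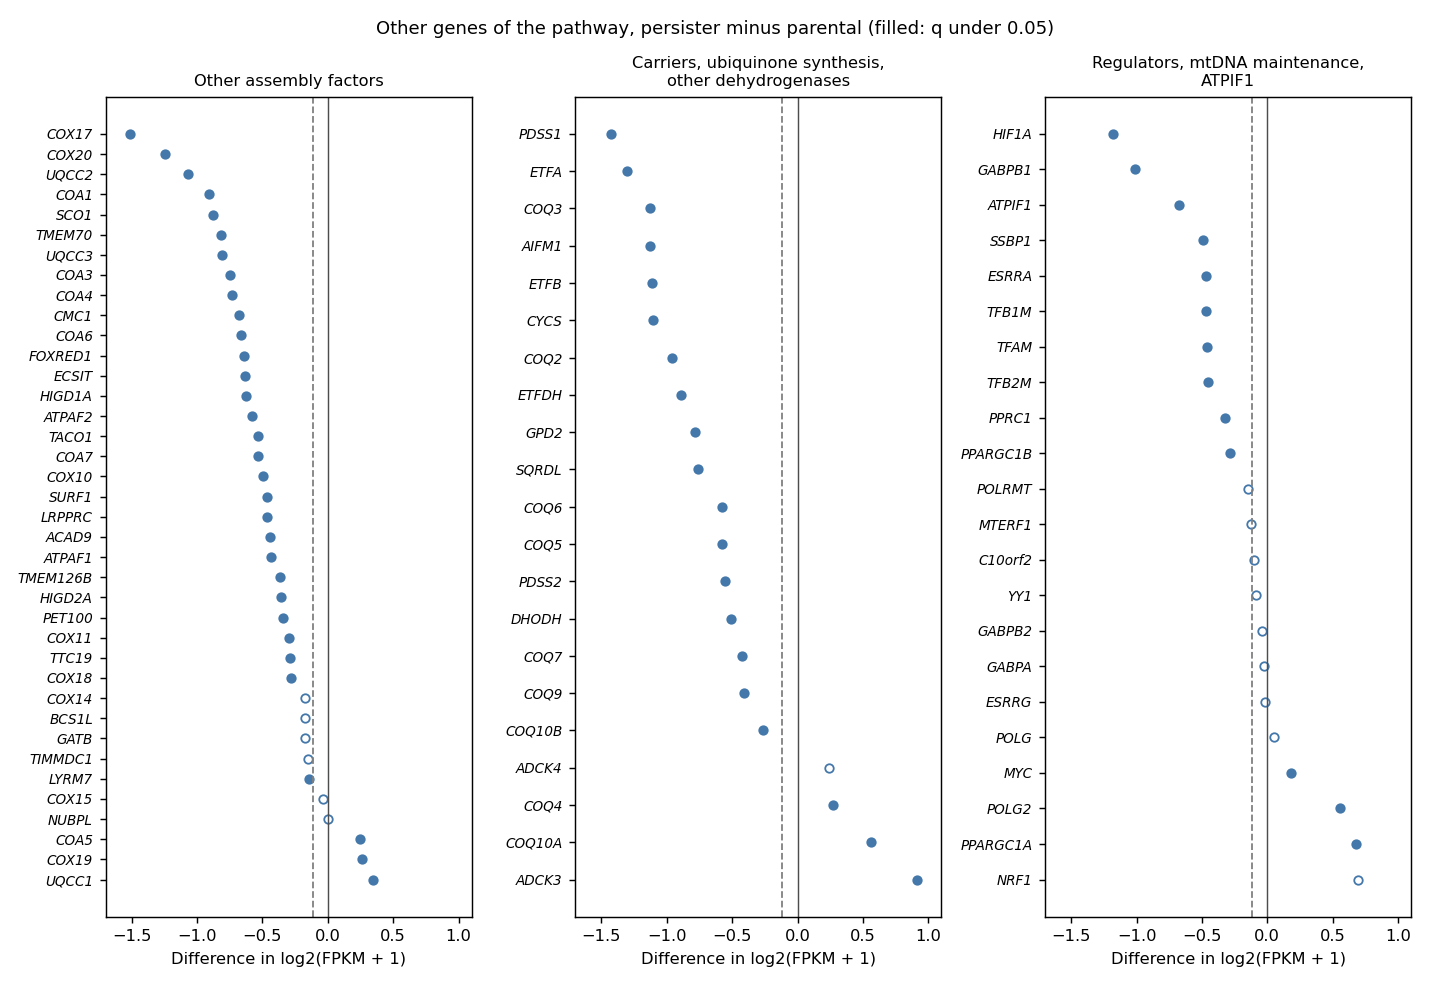
Difference in log2(FPKM + 1), persister minus parental (horizontal axis), of each matched gene on the 3 fixed pathway lists (vertical axis), filled where the authors' q-value was under 0.05. The solid line is 0 and the dashed line the median of -0.12 over 10160 genes, and values called lower number 29 of 38, 17 of 21 and 10 of 22 from left to right, or 25, 16 and 9 on the TPM scale. Over all tested genes, 39.0% were called lower, or 31.5% on the TPM scale.

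Beside other gene groups, the median of the respiratory genes was nearest to that of the mitochondrial ribosomal proteins, which translate the mitochondrially encoded subunits. Of 75 mitochondrial ribosomal protein genes, 68 were called lower and 0 higher, with a median of -0.63 (64 lower and 4 higher on the TPM scale). Of 72 tested genes for cytosolic ribosomal proteins, the most abundant of these groups, 9 were called lower and 20 higher, with a median of 0.03 (3 lower and 26 higher on the TPM scale). The V-ATPase, the lysosomal proton pump that is related in structure to ATP synthase, had 9 of 22 tested genes called lower and 5 higher, with a median of -0.04 (5 lower and 9 higher on the TPM scale). Over all tested genes, 39.0% were called lower and 30.9% higher (31.5% and 38.3% on the TPM scale). As deposited, the V-ATPase genes, with 40.9% called lower and 22.7% higher, were near the table-wide share for lower calls. These differences between gene groups were not tested.

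**Figure D5:**
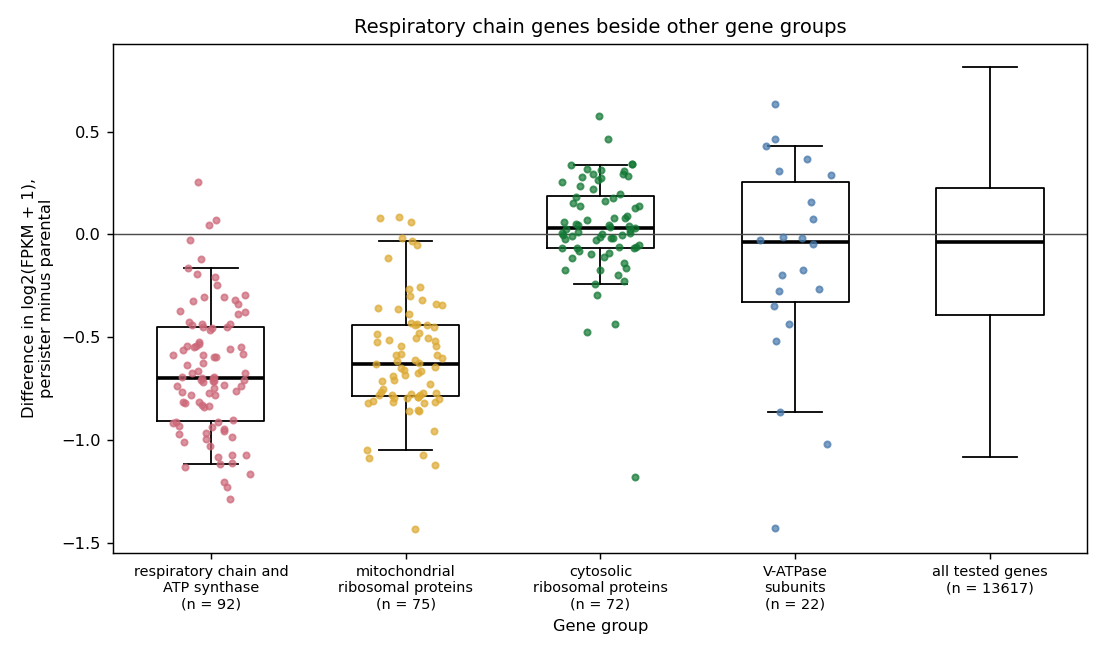
Difference in log2(FPKM + 1), persister minus parental (vertical axis), of tested genes in 4 gene groups and over all 13617 tested genes. Boxes span the quartiles with the median, whiskers the 5th to 95th percentile and points are genes; medians are -0.70, -0.63, 0.03, -0.04 and -0.04 from left to right, or -0.35, -0.30, 0.39, 0.31 and 0.24 on the TPM scale.

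Promoters of 5 members are printed because known activators of respiratory genes bind short motifs near their start sites. A part of these motifs in the differences was not tested. The sequences are from RefSeq (GRCh38.p14), where 80 members matched an entry, and the search covered 250 bases before to 50 bases after each start on both strands. The motifs were GCATGCGC (the core of the NRF1 site), CCGGAAG (the ETS family, which includes GABPA) and AAGATGGC (YY1). Shown for each complex is the called subunit with the largest difference among those with a motif in the 120 bases before the start, with the motif in capitals; where the NRF1 core stands on both strands, overlapping copies form 1 longer run.
NDUFS7: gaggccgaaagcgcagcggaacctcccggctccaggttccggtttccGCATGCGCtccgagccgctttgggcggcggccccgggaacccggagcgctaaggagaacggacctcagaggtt
SDHD: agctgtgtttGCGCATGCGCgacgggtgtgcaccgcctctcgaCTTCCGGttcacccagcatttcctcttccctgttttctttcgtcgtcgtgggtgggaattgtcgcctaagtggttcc
UQCRQ: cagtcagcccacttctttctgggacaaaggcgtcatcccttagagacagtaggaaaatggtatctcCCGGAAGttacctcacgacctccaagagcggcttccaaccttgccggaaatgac
COX8A: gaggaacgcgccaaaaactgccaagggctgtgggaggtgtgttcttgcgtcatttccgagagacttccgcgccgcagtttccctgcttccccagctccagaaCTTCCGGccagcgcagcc
ATP5I: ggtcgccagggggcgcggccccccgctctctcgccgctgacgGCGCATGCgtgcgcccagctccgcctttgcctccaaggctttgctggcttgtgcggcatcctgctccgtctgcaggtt

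These windows lie at chr19:1383787-1383906 (NDUFS7), chr11:112086753-112086872 (SDHD), chr5:132866522-132866641 (UQCRQ) and chr11:63974500-63974619 (COX8A) on the plus strand and at chr4:674277-674396 (ATP5I) on the minus strand, each directly upstream of the annotated start. NDUFS7 and ATP5I hold the NRF1 core, SDHD the NRF1 core on both strands and an ETS motif, and UQCRQ and COX8A 1 ETS motif each. Over the 80 members, 16 windows (20%) held the NRF1 core, 22 (27.5%) the ETS motif and 11 (13.8%) the YY1 motif. The shares over all 27305 promoters were 3.27%, 10.7% and 3.03%, and over the 2608 tested genes with a mean FPKM of at least 20 they were 6.40%, 23.7% and 8.55%. In the same order, 67 mitochondrial ribosomal protein genes had 8.96%, 41.8% and 28.4%, and 58 cytosolic ones 5.17%, 32.8% and 8.62%. For 16 V-ATPase genes the shares were 6.25%, 12.5% and 0%. The ETS motif was thus more frequent in both ribosomal groups than in the members, and the YY1 motif in the mitochondrial one. The NRF1 share depended on the form searched: a longer form, searched first and made of the core on both strands, was in 5 of 80 members (6.25%) and in 2.80% of those 2608 genes. Members with and without the NRF1 core had median differences of -0.63 (16 tested genes) and -0.70 (59). Those with and without the ETS motif had medians of -0.68 (21) and -0.70 (54), and those with and without the YY1 motif of -0.74 (11) and -0.68 (64). These comparisons were not tested, and a match of letters is a description and no measure of binding.

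The labelled cell type was checked by marker genes. The luminal keratins KRT8, KRT18 and KRT19 ranged from 483 to 841 FPKM in parental and from 328 to 623 FPKM in persister cells. Of 8 tested luminal markers, 5 were called lower and 3 (GATA3, ESR1 and ERBB3) higher, on both scales. ERBB2, the amplified gene of this line, was listed at 0 in both groups, so no level can be read for it. Summed FPKM in parental and persister cells was 13.5 and 8.74 for 6 fibroblast markers, nearly all from COL1A1, 2.31 and 1.98 for 4 immune markers, 1.098 and 0.1365 for 4 endothelial markers and 5.71 and 2.12 for 4 muscle markers. CD68, at 2.30 and 1.97 FPKM, made up nearly all of the immune sum, and ACTA1, at 5.66 and 2.05 FPKM, nearly all of the muscle sum. The endothelial sum came mostly from CDH5 (0.592 and 0.0441 FPKM) and VWF (0.487 and 0.0884 FPKM). COL1A1, ACTA1, CDH5 and VWF were called lower and CD68 was not called. DCN, LUM, PTPRC, CD3E and DES, from the same lists, were each below 0.01 FPKM in both groups.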

How the data were processed

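Libraries of 2 parental and 3 persister samples of BT474 did not retain strand information, per the labels' protocols. Build hg18 and the programs Cuffdiff 2.0.2, Cufflinks, TopHat2 2.0.6 and CASAVA 1.8 are listed in the submitters' processing notes, without settings. The authors deposited 1 table of 18803 rows with an FPKM value per group, per the file headers. Beside it stands the authors' q-value, whose adjustment method no source used here gives, listed as 0 in 2712 rows. There are no counts and no values per library, so depth, replicate spread and intervals are unknown, and no fit over libraries was possible.

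Symbols on more than 1 row (269) were represented by the row with the highest mean FPKM, and 25 of 26 spreadsheet dates were given symbols through RefSeq identifiers. Differences are log2(FPKM + 1), which understates changes of low genes. Genes with a q-value under 0.05 were called, among those below 1. The code for counts and medians was checked with known shifts and q-values planted on the deposited parental values (Python 3.11.15, pandas 2.3.3). That is a check of the code and not of the results. Transcript lengths (GENCODE 29) were known for 98.1% of tested genes. Without strand, reads of overlapping genes cannot be told apart, and the reference build differs from that of the authors, so only printed sequences carry coordinates.

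The members, their grouping by complex, the lists and the settings were chosen with earlier results of these data known. Values are given for up to 4 members with the largest difference and the 1 with the smallest in each complex and role, for each member called higher or not called, for isoform pairs, CYC1, CYCS and ATPIF1, and for up to 3 called genes per direction on each pathway list. Other genes were named after their values were seen, and 1 member is counted but not reported here by name. Alternatives were a pseudocount of 0.1, at least 1 FPKM in both groups, centring, a q-value under 0.01, a difference of at least 0.5, summed rows, leaving out copies and restricted isoforms, and, added after seeing the data, the TPM scale.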

Additional observations from a re-analysis of the deposited data

How the results depend on the processing

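The 85 members called lower numbered 65 to 85 under the alternatives tried. The count called higher went from 1 to 0 when a difference of at least 0.5 was required and to 10 on the TPM scale, chosen after seeing the data. Centring was on the median of -0.12 over the 10160 tested genes with at least 1 FPKM in both groups. Relative to that median, the medians were -0.58 for all tested members, -0.60, -0.48, -0.84, -0.47 and -0.59 for complexes I to V and -0.34 for assembly factors. On the TPM scale they were -0.35, then -0.39, -0.25, -0.61, -0.23 and -0.37, and -0.15. For complex IV these values are over 14 tested subunits, which include the isoforms COX7A1 and NDUFA4L2 listed near 0. Over its 12 ubiquitous subunits the median was -0.53 relative to the median of the 10160 genes and -0.29 on the TPM scale. None of these medians changed sign. A pseudocount of 0.1, the FPKM minimum and summed rows moved each median by less than 0.1. No paired analysis was possible because the table holds 1 value per group, and for the same reason no library could be left out. The unknown depth limits the members listed near 0, for which no change can be read.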
